A study of Mus musculus with 6 samples.

Results

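The 10 genes described here are p53 itself (Trp53 in the mouse), its inhibitors Mdm2 and Mdm4, and 7 genes that p53 is known to switch on: Zmat3, Phlda3, Ccng1, Trp53inp1, Sesn1, Sesn2 and Rrm2b. They were chosen by name from 33924 genes of a table of RNA sequencing reads, and all 10 had enough reads to be tested. Their levels were compared among 3 groups of 2 libraries each. The first 2 groups are leukemias, numbered 1 and 92, of the Mll-Af4/N-RasG12D genotype from bone marrow, and the third is pro-B cells from wild-type marrow with the surface markers B220+ CD43+ IgM-. To make the leukemias, lineage-depleted c-Kit+ Sca1+ progenitors from Mll-Af4 mice aged 6 to 8 weeks were given a Cre retrovirus (MSCV-cre-IRES-TdTomato) sorted for the Tomato marker and given an N-RasG12D retrovirus, and 250000 sorted cells were injected into mice irradiated with 900 rads, together with 200000 wild-type marrow cells. The age of the mice that gave the pro-B cells is not given in the sources used here. The leukemias therefore grew in hosts that also held wild-type helper marrow, and Mll-Af4 cells without N-RasG12D were not analysed here. The labels number 2 replicates per group and do not say that they are separate animals. The p-values of fits on single libraries may thus not measure the spread between animals. The 2 libraries of leukemia 1 differed widely, as described below. Where the libraries of each leukemia were summed, the spread also holds the difference between the 2 leukemias.

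p53 is a transcription factor that is held at a low level because MDM2 marks it for degradation, while MDM4, a relative of MDM2, mainly blocks its activity. Since Mdm2 is itself a p53 target, p53 and MDM2 form a feedback loop. DNA damage, or the ARF protein made from Cdkn2a when an oncogene is active, frees p53 from MDM2, and p53 then raises genes of growth arrest, repair, metabolism and death. Much of this control acts on the protein, which was not measured here.

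Promoters are shown because most of these genes are known p53 targets and several moved together. RefSeq windows (build GRCm38.p6) of 300 bases, from 250 before to 50 after a start site, matched 7 of the 10 genes, with 9 windows; Zmat3, Trp53inp1 and Rrm2b had none. The windows were searched for the p53 half-site, a 10-base consensus that reads the same on both strands. A half-site with no mismatch stood in 4 of the 9 windows and in 8.36% of all 32851 windows. A pair of half-sites with at most 1 mismatch in all and at most 13 bases between them stood in 1 of the 9, that of Ccng1, and in 0.627% of all windows. The 4 windows with a match are printed 5′ to 3′ in the direction of the gene, with the matching bases in capitals: Ccng1 (chr11:40755237-40755536, minus strand), Mdm2 (chr10:117710709-117711008, minus strand), a second start site of Sesn1 (chr10:41887189-41887488, plus strand) and Trp53 (chr11:69580109-69580408, plus strand).
Ccng1: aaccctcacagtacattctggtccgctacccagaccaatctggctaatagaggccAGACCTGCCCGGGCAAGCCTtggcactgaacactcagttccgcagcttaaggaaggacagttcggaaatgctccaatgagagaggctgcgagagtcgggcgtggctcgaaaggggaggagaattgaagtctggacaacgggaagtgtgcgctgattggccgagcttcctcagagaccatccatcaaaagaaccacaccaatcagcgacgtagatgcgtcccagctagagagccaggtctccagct
Mdm2: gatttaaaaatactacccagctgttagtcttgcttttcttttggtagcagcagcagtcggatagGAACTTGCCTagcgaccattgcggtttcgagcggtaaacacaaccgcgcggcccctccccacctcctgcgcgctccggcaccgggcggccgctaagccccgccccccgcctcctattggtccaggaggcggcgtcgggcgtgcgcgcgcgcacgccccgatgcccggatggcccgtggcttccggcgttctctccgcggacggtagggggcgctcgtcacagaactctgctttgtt
Sesn1: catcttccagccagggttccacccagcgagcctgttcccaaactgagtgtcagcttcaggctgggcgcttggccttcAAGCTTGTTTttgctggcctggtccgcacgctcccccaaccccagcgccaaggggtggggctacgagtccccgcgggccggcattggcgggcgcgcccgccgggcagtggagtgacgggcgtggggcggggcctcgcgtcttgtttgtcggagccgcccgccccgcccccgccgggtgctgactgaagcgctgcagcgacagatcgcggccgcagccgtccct
Trp53: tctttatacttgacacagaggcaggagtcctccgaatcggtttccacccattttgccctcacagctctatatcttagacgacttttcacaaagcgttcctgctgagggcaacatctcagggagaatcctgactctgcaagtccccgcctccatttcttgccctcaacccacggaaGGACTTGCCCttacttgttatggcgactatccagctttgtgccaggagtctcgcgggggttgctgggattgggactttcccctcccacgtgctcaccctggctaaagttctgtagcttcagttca
The capitals begin 195 bases upstream of the start site in Ccng1, 186 in Mdm2, 173 in Sesn1 and 75 in Trp53. In Ccng1 the capitals are 2 adjoining half-sites, of which the second matches in full. A match is a string of letters, not a measured binding site, and the binding of p53 was not measured.

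Gene counts summed to 22153444 to 27444759 per library, so 3 reads in 1 library correspond to 0.111 to 0.14 CPM, reads scaled by the gene total of the library and a TMM factor (a correction for composition). Replicate 2 of leukemia 1 stood apart from its partner: 12 granulocyte markers summed to 16230 CPM there and 178 CPM in replicate 1, against 445 to 783 CPM in leukemia 92 and 421 to 446 CPM in pro-B cells. The SD of log2 differences between the 2 libraries was 1.03 in leukemia 1, 0.20 in leukemia 92 and 0.19 in pro-B cells, over 10215 genes above 5 CPM. Reads of 4 Y-linked genes summed to 1205 in replicate 2 and 121 in replicate 1 of leukemia 1, and to 0 to 6 elsewhere. The 15 pro-B markers summed to 6230 to 7826 CPM in leukemia and 5955 to 6919 CPM in pro-B cells, but single markers differed: 2 were called higher and 4 lower in leukemia. Dntt, the terminal transferase of early B and T cells, averaged 787 CPM in pro-B cells and 0.348 CPM in leukemia, Rag2 42.3 and 4.07 CPM, Cd93 407 and 129 CPM, and Spn (CD43, a marker of the sort) 305 and 148 CPM. Cd79a, of the B cell receptor, averaged 431 CPM in pro-B cells and 1294 CPM in leukemia. The leukemias and the sorted pro-B cells thus differed in B-lineage transcripts too. Markers of other cells were also present in the sorted pro-B libraries: 6 markers of plasmacytoid dendritic cells summed to 2007 and 2300 CPM there and 134 to 208 CPM in leukemia, and 10 T and NK markers to 415 and 436 CPM against 5.04 to 54.8 CPM. Of the T and NK markers, Gzma was highest in pro-B cells, at 105 and 90.4 CPM. Cd4 was at 70.4 and 70.2 CPM there, Klrk1 at 64.6 and 64.1 CPM and Ncr1 at 63.8 and 59.6 CPM. The T cell genes Cd3e, Cd3d and Cd3g were at only 1.91 to 4.6 CPM in pro-B cells. In replicate 2 of leukemia 1 these Cd3 genes were at 3.84 to 4.88 CPM. Among the plasmacytoid markers Siglech was highest in pro-B cells, at 1368 and 1544 CPM. Cox6a2, of the same markers, was not called, with means of 39.4 CPM in pro-B cells and 55.4 CPM in leukemia. The sums were 59.4 and 142 against 0.575 to 3.25 CPM for 8 erythroid markers, 36.0 and 42.0 against 1.71 to 13.7 CPM for 5 stromal markers, and 255 and 261 against 354 to 2731 CPM for 7 macrophage markers. No marker was at 0 in every library of either side. The part of these other cells in the results that follow was not tested.

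Between leukemia and pro-B cells, most of the p53 targets were higher, while Trp53 transcript itself had a log2 change near 0. Of the 10 genes, 6 rose (Mdm2, Zmat3, Phlda3, Ccng1, Sesn1 and Sesn2), 1 fell (Rrm2b) and 3 did not pass the test (Trp53, Mdm4 and Trp53inp1). In this comparison the 2 libraries of each leukemia were summed and edgeR's quasi-likelihood test was used over 15280 genes, with a call at a Benjamini-Hochberg adjusted p under 0.05. Over all genes tested 9.54% were called higher and 10.7% lower, 20.2% in all. The median log2 change was 0.77 over the 10 genes and 0.021 over all genes. For 6 of the 10 all 4 leukemia libraries lay above both pro-B libraries, as they did for 23.4% of all genes tested, and for Rrm2b all lay below, as for 27.3%. Without replicate 1 of leukemia 1 the members called higher numbered 3, in a fit that called 13.4% of all genes. Without either pro-B library it was 0, in fits that called 0 of all genes. The changes themselves kept their sign for the 7 called genes in every alternative run.

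**Figure D1:**
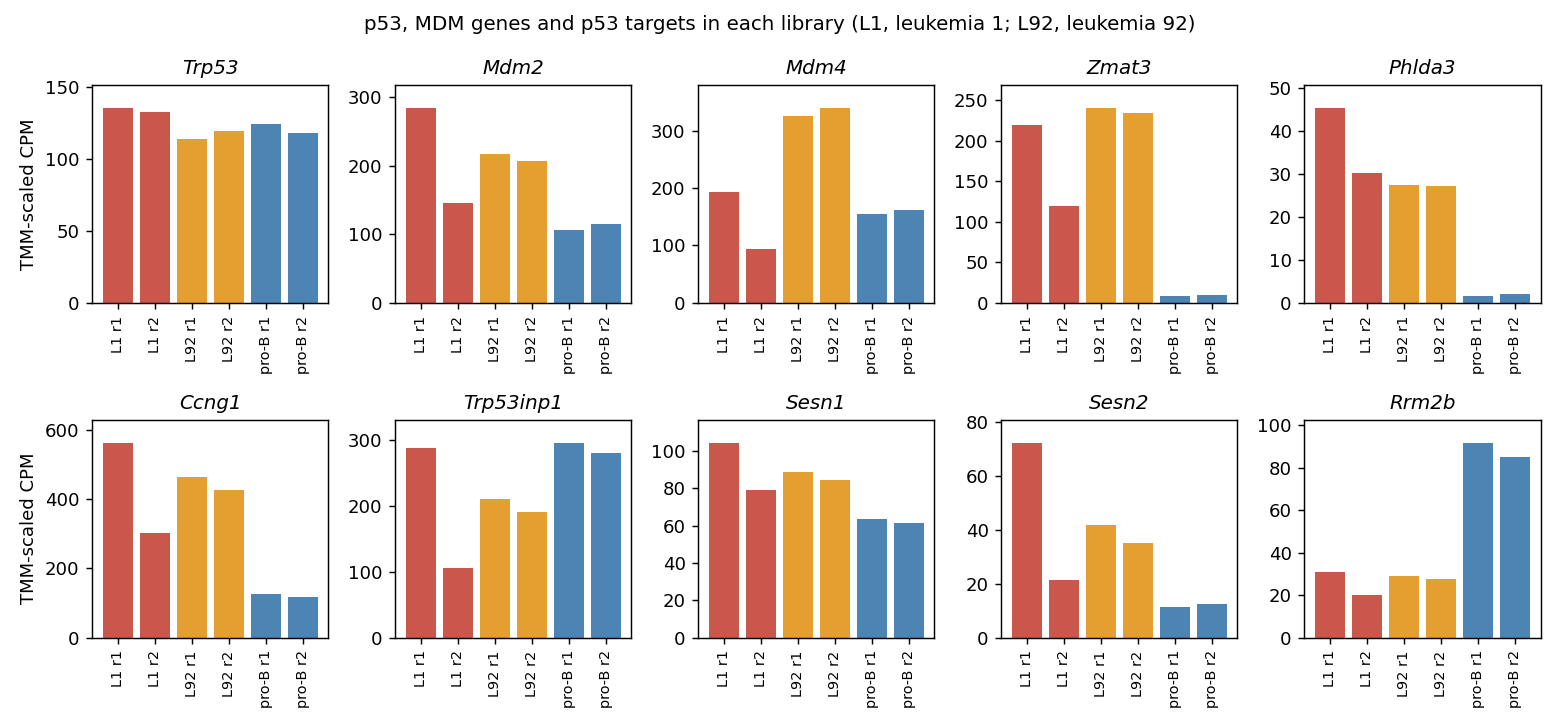
Level of each of the 10 genes in each library, in CPM scaled by TMM on linear axes that start at 0; red, leukemia 1; orange, leukemia 92; blue, pro-B cells; r1 and r2, replicates. Trp53 bars lie between 114 and 135 CPM throughout, while Zmat3 stands at 8.92 and 9.55 CPM in pro-B cells and at 119.6 CPM or more in leukemia.

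Trp53, which encodes p53, had 135 and 133 CPM in leukemia 1, 114 and 119 CPM in leukemia 92, and 124 and 118 CPM in pro-B cells. The groups overlapped, and the log2 change was 0.05 (SE 0.12, edgeR adjusted p = 0.77). It was the least variable of the 10 genes between the unlike libraries of leukemia 1, where the ratio of replicate 1 to 2 was 1.02. The order of group means was leukemia 1 (134 ± 1.85 CPM, SD, n = 2), pro-B cells (121 ± 4.47) and leukemia 92 (117 ± 3.63), and the ranges of pro-B cells and leukemia 92 overlapped. The pseudogene Trp53-ps had 0 reads in every library.

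Mdm2, the ubiquitin ligase that marks p53 for degradation, had 284 and 146 CPM in leukemia 1, 217 and 207 CPM in leukemia 92, and 107 and 114 CPM in pro-B cells. All 4 leukemia libraries were above both pro-B libraries, but replicate 2 of leukemia 1 only modestly so. Over the 4 leukemia libraries, 2 per leukemia, the mean was 213 ± 56.5 CPM (SD), and over the 2 pro-B libraries 110.5 ± 5.22 CPM. With the libraries of each leukemia summed, the log2 change was 0.95 (SE 0.12, adjusted p = 0.019 in edgeR). Without replicate 1 of leukemia 1 the change was 0.72 with an adjusted p of 0.13. With the 6 libraries fitted singly it was 0.95 with an adjusted p of 0.066.

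Mdm4, which blocks p53 activity and does not by itself degrade it well, had its highest levels in leukemia 92. It had 326 and 339 CPM in leukemia 92, 194 and 93.0 CPM in leukemia 1, and 154.5 and 162.5 CPM in pro-B cells. Leukemia 92 was above every other library, while the 2 libraries of leukemia 1 lay on either side of the pro-B pair. The log2 change of leukemia against pro-B cells was 0.60 (SE 0.47, edgeR adjusted p = 0.41). Reads of the pseudogene Mdm4-ps numbered 0 to 8 per library.

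Zmat3, an RNA-binding zinc finger protein, had the largest log2 change of the 10. It had 219.9 and 119.6 CPM in leukemia 1, 240 and 234 CPM in leukemia 92, and 8.92 and 9.55 CPM in pro-B cells. The lowest leukemia library was far above both pro-B libraries. The means were 203 ± 56.4 and 9.24 ± 0.445 CPM (SD over 4 and 2 libraries), a 22-fold ratio. The log2 change was 4.47 (SE 0.27, edgeR adjusted p = 0.0085).

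Phlda3, a pleckstrin-homology protein that restrains AKT, had 45.3 and 30.2 CPM in leukemia 1, 27.5 and 27.2 CPM in leukemia 92, and 1.63 and 2.03 CPM in pro-B cells. It too was high in every leukemia library. The ratio of means was 17.8 and the log2 change 4.15 (SE 0.27, edgeR adjusted p = 0.0088). Both libraries of leukemia 1 were above those of leukemia 92 for Phlda3, and below them for Zmat3.

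Ccng1, cyclin G1, whose promoter holds the pair of half-sites printed above, had 561 and 302 CPM in leukemia 1, 464 and 424.5 CPM in leukemia 92, and 125 and 116 CPM in pro-B cells. The groups did not overlap. The log2 change was 1.86 (SE 0.13, edgeR adjusted p = 0.010), a ratio of means of 3.63. Its call held without either library of either leukemia.

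Sesn1 and Sesn2, of the sestrins, stress proteins that restrain the growth kinase mTORC1, both rose; the difference between their changes was not tested. Sesn2 had 72.1 and 21.2 CPM in leukemia 1, 41.6 and 35.0 CPM in leukemia 92, and 11.3 and 12.4 CPM in pro-B cells. Its log2 change was 1.83 (SE 0.16, edgeR adjusted p = 0.013). Leaving out replicate 1 of leukemia 1 gave 1.36 (adjusted p = 0.088). The 2 libraries of leukemia 1 differed 3.41-fold, the widest gap of the 10 genes, and without replicate 2 the change was 2.21. Sesn1 had 104 and 79.3 CPM in leukemia 1, 88.7 and 84.5 CPM in leukemia 92, and 63.8 and 61.7 CPM in pro-B cells. Leukemia was above in every library, by a log2 change of 0.51 (SE 0.11) with an edgeR adjusted p of 0.046, close to the threshold. The adjusted p was 0.11 without replicate 1 and 0.070 without replicate 2 of leukemia 1.

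Trp53inp1, a nuclear protein that promotes p53 phosphorylation and autophagy, was not called in either direction. It had 288 and 106 CPM in leukemia 1, 210 and 191 CPM in leukemia 92, and 295 and 280 CPM in pro-B cells. Replicate 1 of leukemia 1 lay within the pro-B range and the other 3 leukemia libraries lay below it. The log2 change was -0.54 (SE 0.12, edgeR adjusted p = 0.053), and DESeq2 gave -0.55 with an adjusted p of 0.0091. Without replicate 2 of leukemia 1 it was -0.24 with an edgeR adjusted p of 0.46, and without replicate 1 -0.88 with 0.18.

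Rrm2b, the p53-inducible small subunit of ribonucleotide reductase, was the gene that fell. It had 31.1 and 20.2 CPM in leukemia 1, 28.9 and 27.5 CPM in leukemia 92, and 91.6 and 85.1 CPM in pro-B cells. All 4 leukemia libraries were well below both pro-B libraries. The mean was 3.28 times as high in pro-B cells, and the log2 change was -1.71 (SE 0.15, edgeR adjusted p = 0.013). In a GENCODE annotation of a later build than the mm9 of the counts, 734 of 9134 exon bases of Rrm2b are shared with an antisense gene, Gm49085. The annotation and strand setting of the counts are not given. Whether reads over those bases were affected therefore cannot be told. In the same GENCODE annotation none of the other 9 genes shared exon bases with another gene. In bulk samples fewer cells of a type and less RNA per cell cannot be told apart, here or for the other genes.

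Each leukemia was also compared with pro-B cells on its own, in 1 fit of all 6 libraries with a coefficient per group. The 2 comparisons share the pro-B libraries. In leukemia 1, 4 of the 10 genes were called (3 higher, 1 lower), where 20.3% of 14979 genes were. In leukemia 92 it was also 4 (3 higher, 1 lower), where 31.4% were. In both they were Zmat3, Phlda3, Ccng1 and Rrm2b. The log2 changes in leukemia 1 and leukemia 92 were 4.20 and 4.68 for Zmat3, 4.36 and 3.90 for Phlda3, 1.84 and 1.88 for Ccng1, and -1.79 and -1.65 for Rrm2b. Mdm2 had nearly equal estimates of 0.96 (SE 0.33) and 0.94 (SE 0.33), with edgeR adjusted p values of 0.11 and 0.088. Its 2 libraries of leukemia 1 lay on either side of those of leukemia 92. Mdm4 and Trp53 had estimates of opposite sign. Those of Mdm4 were -0.14 (SE 0.35) in leukemia 1 and 1.07 (SE 0.35) in leukemia 92. Those of Trp53 were 0.15 and -0.05, both with an SE of 0.11. In this fit the wide gap between the libraries of leukemia 1 entered the spread of both comparisons. Without replicate 1 or replicate 2 of leukemia 1 the number called in leukemia 92 became 9, in fits that called 67.6% and 69.4% of all genes.

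**Figure D2:**
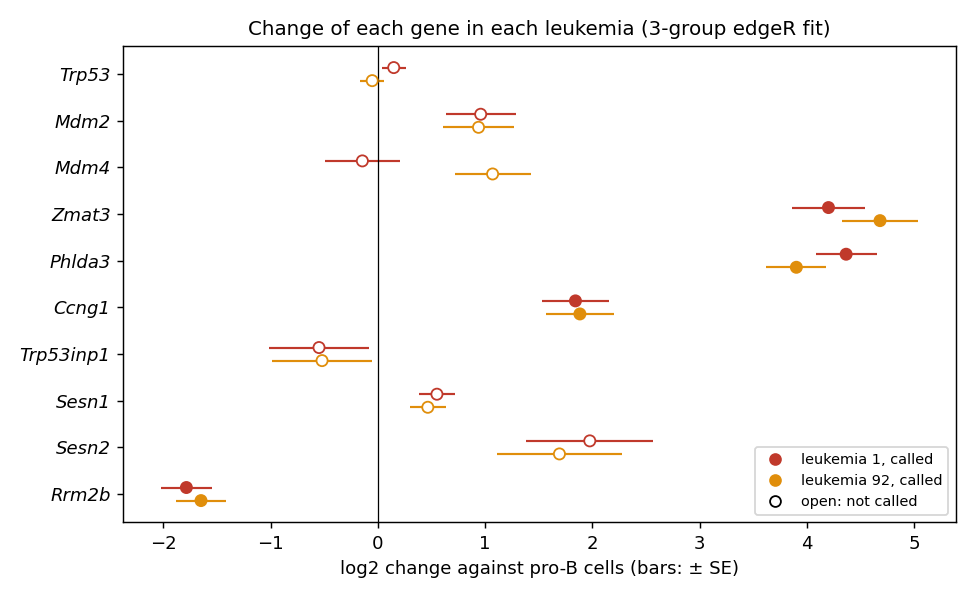
Log2 change against pro-B cells of each gene in leukemia 1 (red) and leukemia 92 (orange), with bars of 1 SE from the edgeR fit of all 6 libraries; filled points passed an adjusted p of 0.05. The 2 estimates lie close for most genes, and Mdm4 shows the widest separation, at -0.14 and 1.07. Each estimate of leukemia 1 joins 2 unlike libraries. For Mdm2 these (284 and 146 CPM) lay on either side of leukemia 92 (217 and 207 CPM).

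Set directly against each other, leukemia 92 and leukemia 1 gave a call for 0 of the 10 genes by edgeR, where 3.09% of all 14979 genes were called. Over all genes 1.82% were called higher and 1.27% lower. The count at an unadjusted p under 0.05, which 25.1% of all genes reached, was 1, Mdm4. DESeq2 called 1, also Mdm4, and 11.5% of all genes. The log2 difference of Mdm4, leukemia 92 minus leukemia 1, was 1.21 (SE 0.36, unadjusted p = 0.020, edgeR adjusted p = 0.13; DESeq2 adjusted p = 0.015). Its 2 libraries of leukemia 92 were above both of leukemia 1, a pattern 25.4% of the genes tested had, Zmat3 among them; Trp53 and Phlda3 had the opposite one, as did 25.8%. The difference was 1.85 without replicate 1 and 0.78 without replicate 2 of leukemia 1, so it kept its sign. For 6 other genes the sign turned with the library used. Without replicate 1 of leukemia 1, leukemia 92 was higher by 0.55 for Mdm2, 0.57 for Ccng1, 0.93 for Trp53inp1, 0.87 for Sesn2, 0.14 for Sesn1 and 0.49 for Rrm2b. Without replicate 2 the differences were -0.42, -0.34, -0.52, -0.91, -0.27 and -0.14 in the same order. For these 6 genes, then, the 2 libraries of leukemia 1 lay on either side of leukemia 92. Of the 10 genes 7 were called without replicate 1 and 8 without replicate 2 of leukemia 1, but so were 50.5% and 52.5% of all genes tested in those fits. The single library left was then assumed to vary like the other groups, so these calls compare it with leukemia 92 without the gap between the libraries of leukemia 1.

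The 2 libraries of leukemia 1 differed in the same direction for all of the 10 genes. Replicate 1 was higher, by 1.95-fold for Mdm2, 2.08 for Mdm4, 1.84 for Zmat3, 1.5 for Phlda3, 1.86 for Ccng1, 2.72 for Trp53inp1, 1.31 for Sesn1, 3.41 for Sesn2, 1.54 for Rrm2b and 1.02 for Trp53. Against the gaps of 10215 genes in the same pair these are not extreme: the gap of Sesn2 was larger in size than that of 93.3% of genes, that of Trp53inp1 than 90.2%, that of Mdm2 than 78.8% and that of Trp53 than 3.5%. Replicate 2 is the library with the granulocyte transcripts, and their part in its lower levels was not tested.

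Reads per Mdm2 read of the same library do not depend on the scaling of libraries, and were examined after the levels had been seen. Each ratio also carries the lengths of both transcripts, so it is compared among libraries and not among genes. Mdm4 reads per Mdm2 read were 0.683 and 0.638 in leukemia 1, 1.5 and 1.64 in leukemia 92, and 1.45 and 1.42 in pro-B cells. On this measure the 2 unlike libraries of leukemia 1 lay close together and apart from all others, and leukemia 92 lay near pro-B cells. For Ccng1 the ratios were 1.98 and 2.07 in leukemia 1, 2.14 and 2.05 in leukemia 92, and 1.17 and 1.01 in pro-B cells. For Cdkn1a, the gene of the cell cycle inhibitor p21, they were 1.85 and 1.89, 1.89 and 1.82, and 0.343 and 0.219. Ccng1 and Cdkn1a are given because their ratios differed least among the 4 leukemia libraries, and the other targets varied more. Within leukemia 1 the ratio of Sesn2 was 0.254 and 0.145, that of Sesn1 0.368 and 0.545, and that of Trp53inp1 1.01 and 0.725. Zmat3 had 0.775 and 0.821 in leukemia 1 and 1.11 and 1.13 in leukemia 92. The ratio of Trp53 was 0.477 and 0.911 in leukemia 1, 0.526 and 0.577 in leukemia 92, and 1.16 and 1.03 in pro-B cells.

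**Figure D3:**
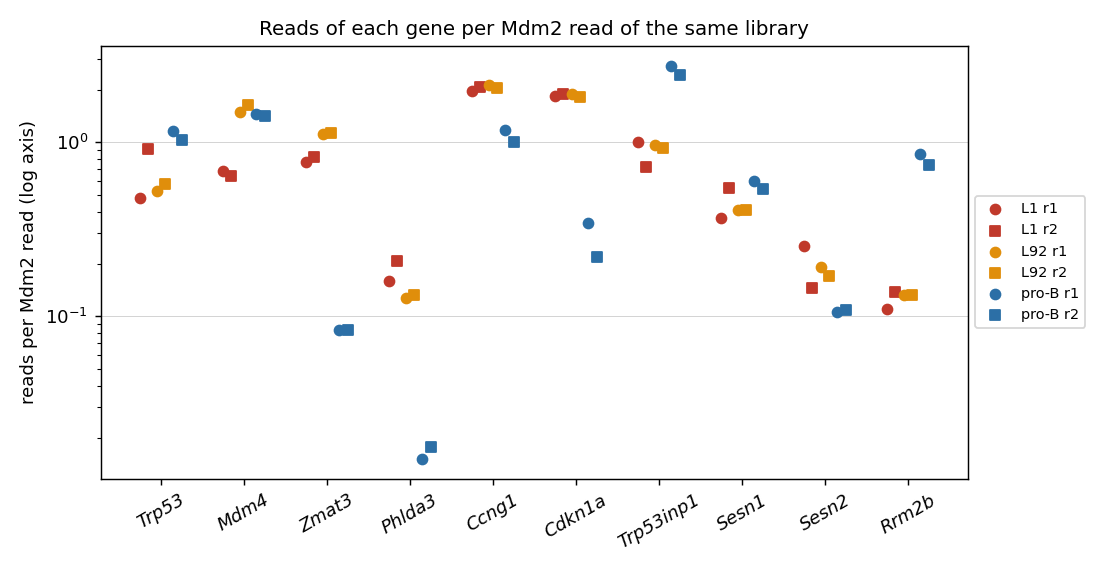
Reads of each gene divided by Mdm2 reads of the same library, on a log axis; circles, replicate 1; squares, replicate 2; red, leukemia 1; orange, leukemia 92; blue, pro-B cells. The 4 leukemia points of Ccng1 (1.98 to 2.14) and Cdkn1a (1.82 to 1.89) nearly coincide, and Mdm4 separates leukemia 1 (0.638 and 0.683) from the rest.

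Other p53 targets, from a list of 38 genes in the table, were examined in the same comparison of leukemia with pro-B cells. Of 35 with enough reads, 13 rose, 0 fell and 22 did not pass, with a median log2 change of 0.85. At an unadjusted p under 0.05, which 38.8% of all genes tested reached, 20 were higher and 3 lower. DESeq2 called 17 higher and 1 lower, and 20.6% of all genes in either direction. Growth arrest genes split: of 9, 3 rose and 6 did not pass by edgeR, where 9.54% of all genes were called higher. Cdkn1a had 524.5 and 275 CPM in leukemia 1, 410.1 and 375.5 CPM in leukemia 92, and 36.6 and 25.0 CPM in pro-B cells (log2 change 3.68, SE 0.25, edgeR adjusted p = 0.010). Plk3, a stress-activated polo-like kinase, rose by 3.95, and Psrc1, a microtubule-binding protein, by 2.21. Psrc1 hardly differed among the leukemia libraries, at 115 to 123 CPM. Gadd45a, named after its values were seen, was at 48.4 CPM in replicate 2 of leukemia 1, 4.48 to 6.38 CPM in the other 3 leukemia libraries and 19.7 and 21.7 CPM in pro-B cells.

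Of 11 death genes 4 rose and 7 did not pass, where 9.54% of all genes tested were called higher. Bbc3, which encodes PUMA, rose by 3.44 (SE 0.36, edgeR adjusted p = 0.016). Tnfrsf10b, the mouse TRAIL receptor, rose by 2.31, but its adjusted p was 0.14 without replicate 1 of leukemia 1. Eda2r, a TNF receptor family member named after its values were seen, had 11.7 and 4.88 CPM in leukemia 1, 0.452 and 1.07 CPM in leukemia 92, and under 0.08 CPM in pro-B cells, with a log2 change of 5.78 (SE 1.53, edgeR adjusted p = 0.073). Of 5 repair genes 0 passed by edgeR, where 20.2% of all genes did. Without adjustment 2 rising and 2 falling genes had p under 0.05, as had 38.8% of all genes. By DESeq2, 2 repair genes were called higher and 1 lower. Of 10 genes of metabolism and other roles, 6 rose, such as Ddit4, an mTORC1 inhibitor like the sestrins, with a log2 change of 2.16. Without replicate 1 of leukemia 1 Ddit4 had a change of 1.77 and an adjusted p of 0.12.

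**Figure D4:**
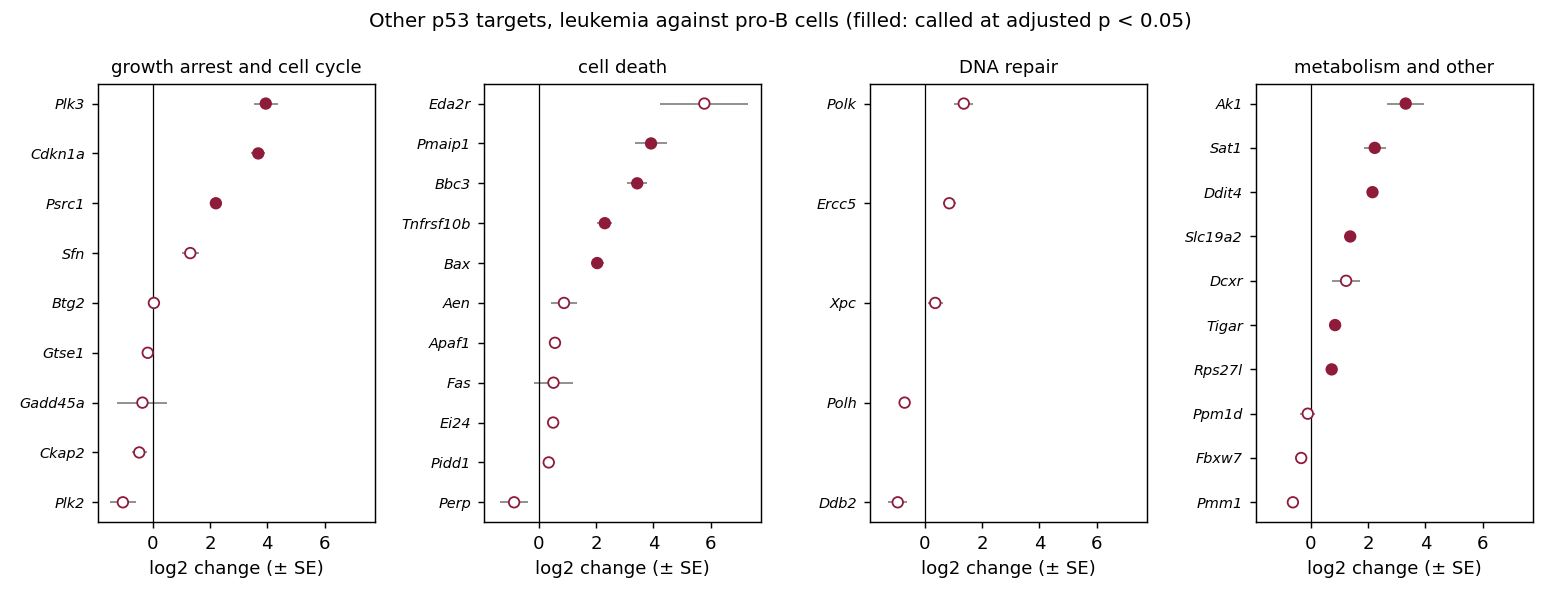
Log2 change of 35 other p53 targets, leukemia against pro-B cells, grouped by role, with bars of 1 SE; filled points passed an edgeR adjusted p of 0.05. All 13 filled points lie right of 0, at 0.73 or more, and the 5 repair genes are all open.

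Among 20 regulators of p53 other than the MDM pair, 2 were called higher and 1 lower by edgeR, with a median log2 change of 0.02. These counts lie near or under the shares over all genes, 9.54% higher and 10.7% lower, so the list as a whole is no result, and the called genes are given as single values. Cdkn2a, which encodes both ARF, an inhibitor of MDM2, and the CDK inhibitor p16, had the largest change of them. It had 75.8 and 42.1 CPM in leukemia 1, 101 and 93.6 CPM in leukemia 92, and 0.185 and 0.195 CPM in pro-B cells, the last from 5 reads in each library. The log2 change was 8.67 (SE 0.49, edgeR adjusted p = 0.0083), larger than that of any of the 10 genes. Counts per gene do not tell the 2 products of Cdkn2a apart. Rpl23, a ribosomal protein that binds MDM2, rose by 0.63 (edgeR adjusted p = 0.039, and 0.11 without replicate 2 of leukemia 1). Atm, the damage kinase that phosphorylates p53, fell by 0.80 on the log2 scale (edgeR adjusted p = 0.023), and the adjusted p was 0.067 and 0.099 without replicates 1 and 2 of leukemia 1.

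Relatives of the 10 genes were examined next. Sesn3, Ccng2 and Rrm1 are named after their values were seen. Of 12 listed, 9 were tested, 1 rose and 8 did not pass, and their median log2 change was 0.04. Over all genes 9.54% were called higher, so the count lies near that share and is no result about the list. The sestrin Sesn3 had a change of 0.00 (SE 0.21) and cyclin G2 (Ccng2) of 0.04 (SE 0.21), where their relatives Sesn2 and Ccng1 rose; the differences between relatives were not tested. Phlda1 rose by 3.94 (SE 0.18, edgeR adjusted p = 0.0065). Rrm2, the replicative partner subunit of which Rrm2b is the stress counterpart, had a change of -0.41 (SE 0.27, edgeR adjusted p = 0.33). Rrm1, the large subunit that both small subunits need, had -0.66 (SE 0.23, edgeR adjusted p = 0.12). Of the p53 family, Trp73 had 0 to 2 reads per library, under the limit of 3. Trp63 had 231 reads (8.54 CPM) in replicate 2 of leukemia 1 and 1 to 10 reads in each of the other 5 libraries.

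Of 9 cell cycle genes that p53 is known to lower through p21 and the DREAM repressor complex, 4 fell and 5 did not pass by edgeR, where 10.7% of all genes were called lower. At an unadjusted p under 0.05, which 38.8% of all genes reached in either direction, 7 were lower and 0 higher. DESeq2 also called 7 lower and 0 higher, and 20.6% of all genes in either direction. The median log2 change was -0.91. The 4 called by edgeR were Plk1 (-1.16), Cenpf (-1.61), Ccnb1 (-0.91) and Cdc20 (-1.18), all genes of mitosis. Cenpf had 91.5 and 103 CPM in leukemia 1, 54.9 and 51.3 CPM in leukemia 92, and 224.5 and 235 CPM in pro-B cells. All 4 calls were lost without replicate 1 of leukemia 1, with adjusted p values of 0.16 for Plk1, 0.072 for Cenpf, 0.13 for Ccnb1 and 0.25 for Cdc20.

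The genes with patterns most like 3 of the members over the 6 libraries were found by Euclidean distance of log2(CPM + 0.5), centred per gene, among 9518 genes of at least 5 CPM. Nearest to Trp53 were Ciao1 (distance 0.043), Hspe1 (0.075) and Psmc4 (0.077). Nearest to Mdm2 were Etv3 (0.145), Swap70 (0.160) and Lrrfip1 (0.165). Nearest to Zmat3 were Pros1 (0.232), Nlrc4 (0.392) and P2ry2 (0.396). Pros1, which encodes the anticoagulant protein S, had 116 and 67.7 CPM in leukemia 1, 133 and 117 CPM in leukemia 92, and 3.89 and 4.72 CPM in pro-B cells. Such distances describe 6 libraries in 3 groups and are not a test.

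**Figure D5:**
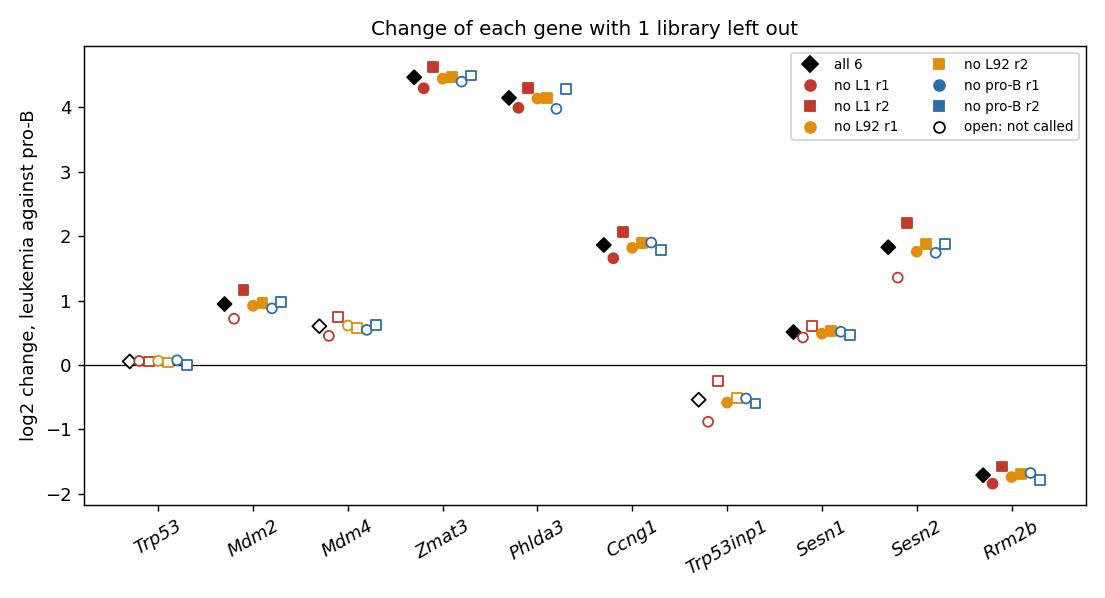
Log2 change of each gene, leukemia against pro-B cells, with all 6 libraries (black) and with each library left out in turn; filled points passed an edgeR adjusted p of 0.05. The change of Zmat3 stays between 4.30 and 4.63 and that of Sesn2 between 1.36 and 2.21, and every point without a pro-B library is open.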

How the data were processed

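The deposited values are counts: whole reads for each gene symbol in each library, as the file itself shows. Per the submitters' processing notes the tools were STAR 2.4, HTSeq 0.6.1 and DESeq2 and the build was mm9, without roles; which annotation and strand setting the authors used was not stated. Entries naming no gene (34.0% to 39.6% of a library) were dropped. Leukemia was set against pro-B cells with the libraries of each leukemia summed; single leukemias came from 1 fit of 6 libraries. Tests were edgeR 4.0.16 under R 4.3.3: filterByExpr (minimum count 10), TMM, robust quasi-likelihood, and Benjamini-Hochberg adjustment over all genes tested. DESeq2 1.42.0 was an alternative. The code was tested on simulated data. SE was derived from the F statistic. Lists held 38 other targets, 20 regulators, 12 relatives and 9 cell cycle genes. Tigar, Cop1, Adgre1 and Pidd1 were matched by older symbols, the last added after its first name had no match. Named were all members, up to 6 called genes per list and direction by smallest p (3 between the leukemias), Cdkn1a, Cdkn2a, Trp63 and Trp73. Gadd45a, Eda2r, Sesn3, Ccng2, Rrm1 and the cell type markers were named outside this rule. The members and lists were chosen with earlier results of these data known.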

Additional observations from a re-analysis of the deposited data

Results flagged for a closer look

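In 3 of 73 listed genes tested (4.11%, near the 3.09% of all genes called) the change against pro-B cells differed between the leukemias by the test of leukemia 92 against leukemia 1 in edgeR. None of them is among the 10 members. Fas, a death receptor and p53 target, had levels of 5.57 and 5.88 CPM in leukemia 1, 1.60 and 1.59 CPM in leukemia 92, and 2.33 and 2.73 CPM in pro-B cells, a log2 difference of -1.84 (adjusted p = 0.047). Rrm2, the replicative relative of Rrm2b, had 375 and 358 CPM in leukemia 1, 203 and 226 CPM in leukemia 92, and 395 and 373 CPM in pro-B cells, a difference of -0.77 (adjusted p = 0.047). Cenpf, a kinetochore gene, differed by -0.87 (adjusted p = 0.043). In all 3 the 2 libraries of leukemia 1 lay close together although that pair is the wide one elsewhere. All 3 calls were lost without the low-count filter (adjusted p 0.05 for Cenpf, 0.062 for Fas and 0.066 for Rrm2). That fit called 1.7% of all genes. They were also lost with the replicate block (0.12, 0.14 and 0.13), but this fit called 0 of all 14979 genes. Fits without either library of leukemia 92 or of the pro-B cells made no call for any gene, so they say nothing particular about these 3.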

How the results depend on the processing

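With 2 libraries per group, the number of calls moved more than the changes did. The share of all genes called moved as well. For leukemia against pro-B cells it was 20.2%, 20.6% by DESeq2, 31.5% in the 6-library fit and 22.5% with the replicate block. Between the leukemias it was 3.09%, 11.5% by DESeq2, 1.7% without a low-count filter and 0 with either replicate block. For leukemia 1 against pro-B cells it was 20.3% and 19.9% by DESeq2, and for leukemia 92 it was 31.4% and 25.9%. Between the leukemias and for each leukemia alone, fits with 1 library left out called from few or no genes to most genes. The counts below from those fits moved with this share, so they are no result about the listed genes. For leukemia against pro-B cells, 6 members were called higher, against 3 in the 6-library fit and 3 with the replicate block, and 0 to 6 with 1 library left out. The 1 called lower became 2 by DESeq2, 2 and 3 without both libraries of leukemia 1 or of leukemia 92, and 0 to 2 with 1 library left out. The 13 other targets called higher became 22 and 24 without both libraries of leukemia 1 or of leukemia 92, where the spread came from the pro-B pair only and 66.6% and 61.5% of all genes were called, and 0 to 15 with 1 library left out. Between the leukemias 0 members were called, 1 by DESeq2 and 0 to 8 with 1 library left out; other targets numbered 1, against 13 by DESeq2, 0 without a low-count filter, 0 with the replicate block, 0 with the crossed replicate block and 0 to 24 with 1 library left out. In leukemia 1 against pro-B cells 4 members were called, 7 by DESeq2, and 0 to 9 with 1 library left out, and 15 other targets became 0 to 30. In leukemia 92 against pro-B cells it was 4, 7 and 2 to 9, and 18 other targets became 4 to 32.

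Some signs turned. In leukemia against pro-B cells, Trp53 was at -0.033 without both libraries of leukemia 1 and between -0.003 and 0.073 with 1 library left out, Fas at -0.64 without both libraries of leukemia 1, Mdm4 at -0.21 without both of leukemia 92, and Gadd45a at 0.42 without both of leukemia 92 and between -1.94 and 0.36 with 1 left out. In leukemia 1 against pro-B cells Mdm4 ran from -0.78 to 0.25 with 1 left out. Between the leukemias the ranges with 1 left out were -0.42 to 0.55 for Mdm2 (0.026 with either replicate block), -0.27 to 0.14 for Sesn1, -0.91 to 0.87 for Sesn2, -0.34 to 0.57 for Ccng1, -0.52 to 0.93 for Trp53inp1 and -0.14 to 0.49 for Rrm2b. The cause was not tested.

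Same-numbered libraries deviated with correlations of -0.233 (leukemia 1 and 92), 0.069 and -0.041. With 2 libraries per group such values cannot tell whether the numbers pair the samples, and the main fits assumed no pairing. The crossed pairing was added after the value of -0.233 was seen. Each member had 44 or more reads in each library.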
